A study of Gallus gallus with 6 samples.

Results

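The distal part of chicken chromosome Z was examined in RNA of posterior and anterior half-sclerotomes from chick embryos. Members were the rows of the authors' deposited gene table whose locus starts at or beyond 35 Mb of chromosome Z on galGal4 and whose posterior and anterior values average at least 1 FPKM, an RNA level scaled by transcript length and library size. VCAN, HAPLN1 and MEF2C were left out by name. This gave 243 members among 17108 rows of the table, from 35396342 to 81827757 bp of chromosome Z. Of the 427 rows in the region, 181 were under 1 FPKM and 0 of those were tested by the authors. Members were chosen by the FPKM values themselves, and the start of 35 Mb was chosen with the posterior over anterior ratios known, so counts and medians over the members are descriptions without a test.

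Vertebrae form from the sclerotome, the ventral tissue of each somite, which divides into posterior and anterior compartments. The posterior group held 3 libraries and the anterior group 3, all from wild type embryos at Hamburger-Hamilton stage 18 (embryonic day 3). Each library came from a pool of 100 half-sclerotomes cut from somites 11 to 23, where 1 is the youngest somite. Nothing in the labels says whether the pools came from separate embryos, and they give no sex. The table holds 1 FPKM value per group, so no value per library and no spread between libraries can be shown beside a level. The authors' q-value is the only measure of error, and depth is unknown because no counts were given. In pooled tissue, fewer cells of a type and less RNA per cell cannot be told apart.

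Chromosome Z is the sex chromosome that birds of both sexes carry. Males have a pair of Z chromosomes, and females have one Z and one W. Birds do not silence a whole Z chromosome, and many Z genes are known to have more RNA in males than in females. The distal part holds genes of unrelated kinds, among them the Hedgehog receptor PTCH1, the orphan nuclear receptor NR2F1, cell cycle and DNA repair genes and metabolic enzymes.

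Most members had a somewhat higher level in posterior than in anterior half-sclerotomes. The posterior value was the higher one in 197 of 243 members (81.1%), and the median log2 ratio of posterior over anterior was 0.24, a 1.18-fold difference, with quartiles at 0.05 and 0.40. On the numbered autosomes, the posterior value was higher in 49.7% of 9836 rows at 1 FPKM or more, with a median log2 ratio of -0.002. On chromosome Z before 35 Mb, it was higher in 55.3% of 264 rows, with a median of 0.05. The shift was not limited to genes that the authors called: the 204 members without a call had a median log2 ratio of 0.21, against -0.001 for autosomal rows without a call.

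With a call defined as a q under 0.05 in the authors' deposited table, 35 of 235 tested members were higher in posterior and 4 were higher in anterior. Over all 10529 tested rows of the authors' deposited table, 3.57% were called higher in posterior and 3.50% higher in anterior, and nothing is read from the difference because these ratios chose the region. Among tested autosomal rows at 1 FPKM or more 3.34% were called higher in posterior and 3.61% higher in anterior, and on chromosome Z before 35 Mb 3.89% were called higher in posterior and 4.67% higher in anterior, in the authors' deposited table. Going by an unadjusted p under 0.05, 77 members were higher in posterior and 7 were higher in anterior, against 8.21% of all tested rows higher in posterior and 7.93% higher in anterior in the authors' deposited table. Called posterior members differed by 1.30-fold to 3.19-fold, with a median of 1.49-fold. The 317 autosomal genes called higher in posterior had a median of 1.78-fold. Of these 35 members, 6 reached 2-fold and 29 stayed under it.

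**Figure D1:**
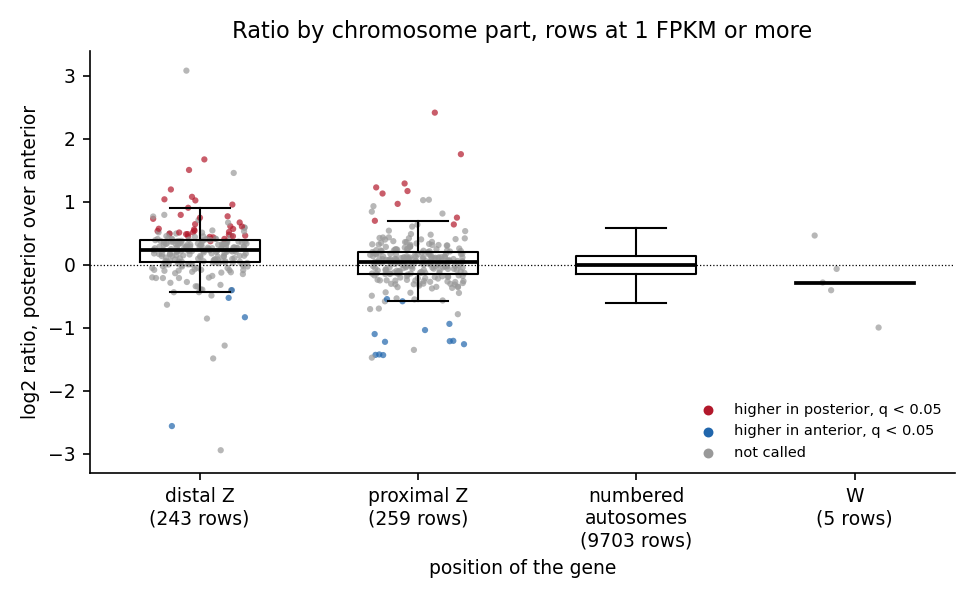
Log2 ratio of posterior over anterior FPKM (y axis) for rows at 1 FPKM or more on distal Z, proximal Z, the numbered autosomes and W (x axis). Points are genes (not drawn for autosomes), boxes show quartiles and median with whiskers to 1.5 times the interquartile range, and the bar on W is a median; rows at 0 in one group are not drawn, and the distal Z median of 0.24 lies above the proximal Z median of 0.05 and the autosomal median of -0.002.

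Chromosome W is carried by females, so its genes were measured beside these ratios. Of 16 rows on W, 5 were tested, and in the authors' deposited table none was called; at an unadjusted p under 0.05, 1 was higher in posterior and 1 in anterior. Their levels ranged from 2.12 to 6.20 FPKM in posterior and from 3.87 to 7.14 FPKM in anterior. Summed over these 5 rows the levels were 21.1 FPKM in posterior and 24.1 FPKM in anterior, and the posterior value was the lower one in 4 of 5, with a median log2 ratio of -0.28. The W rows ENSGALG00000005785, ENSGALG00000014184 and ENSGALG00000014441 share their locus with another row, so their reads may have been divided. ENSGALG00000029099 spans only 0.3 kb. The part of the embryos' sex in the ratios of chromosome Z was not tested. A few members are Z copies of genes that also have a W copy. SPINZ was at 61.0 FPKM in posterior and 50.5 FPKM in anterior (q = 0.308 in the authors' deposited table). The row named chPKCI was at 331 FPKM in posterior and 292 FPKM in anterior (q = 0.610 in the authors' deposited table). CHD-Z, a chromatin remodeller gene long used for sexing birds, was at 18.0 FPKM in posterior and 16.9 FPKM in anterior (q = 0.865 in the authors' deposited table). None of these 3 was called. Whether reads of a W copy were counted in its Z row, or the reverse, cannot be told from 1 FPKM value per group.

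Markers of the tissue and of other cells were also measured. Sclerotome markers were present at high levels in both groups, and PAX1, FOXC2, TWIST1 and SOX9 summed to 779 FPKM in posterior and 647 FPKM in anterior. Of these 4, PAX1 was called higher in posterior, at 490 FPKM in posterior and 367 FPKM in anterior (q = 0.0184 in the authors' deposited table), and 0 were called higher in anterior. UNCX, which marks posterior sclerotome, was at 87.8 FPKM in posterior and 1.45 FPKM in anterior, and TBX18, which marks anterior sclerotome, was at 3.10 FPKM in posterior and 32.5 FPKM in anterior. PAX9 and NKX3-2 were not matched in the table. Of 3 neural crest markers used here (SOX10, TFAP2B and CDH7), 0 were called higher in posterior and 3 were called higher in anterior in the authors' deposited table, and their summed level was 6.13 FPKM in posterior and 144 FPKM in anterior. Of 5 endothelial markers (CDH5, VWF, PECAM1, KDR and TEK), 2 were called higher in posterior and 0 in anterior, going by the authors' deposited table, with a summed level of 68.1 FPKM in posterior and 49.7 FPKM in anterior. The calls were CDH5, at 41.1 FPKM in posterior and 25 FPKM in anterior, and VWF, at 2.45 and 0.62 FPKM. PECAM1, at 14 FPKM in posterior and 14.3 FPKM in anterior, and KDR, at 7.46 and 7.37 FPKM, had nearly equal levels. Of 5 myotome and dermomyotome markers (PAX3, MYF5, MYOD1, DES and CHRNA1), 3 were called higher in anterior in the authors' deposited table, and the sum was 27.5 FPKM in posterior and 60.5 FPKM in anterior. Neuron markers (TUBB3, ELAVL4 and STMN2) summed to 48.4 FPKM in posterior and 79.9 FPKM in anterior, with TUBB3 called higher in anterior in the authors' deposited table. The red blood cell gene HBG1 was at 434 FPKM in posterior and 512 FPKM in anterior. None of the matched markers was at 0 in either group. The part of these cell types in the ratios of the members was not tested.

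Along the region, the ratios were not even. In windows of 5 Mb, the median log2 ratio was 0.17 from 35 to 40 Mb, 0.22 from 40 to 45 Mb, 0.14 from 45 to 50 Mb, 0.12 from 50 to 55 Mb and 0.18 from 55 to 60 Mb. Farther out it was 0.29 from 60 to 65 Mb, 0.43 from 65 to 70 Mb, 0.33 from 70 to 75 Mb, 0.31 from 75 to 80 Mb (7 members) and 0.29 from there to the end. The 5 windows beyond 60 Mb thus all had higher medians than the 5 windows from 35 to 60 Mb. Windows before 35 Mb had medians from -0.02 to 0.10. Among 189 autosomal windows with at least 10 rows, medians ran from -0.23 to 0.29, 4 of them were above the lowest distal Z window and 0 were above the highest. Over all tested rows, 3.57% were called higher in posterior in the authors' deposited table. The windows from 65 to 75 Mb held 59 of the 243 members and 21 of the 35 calls toward posterior in the authors' deposited table. Without them, 14 members were called higher in posterior and 4 in anterior, and the median log2 ratio was 0.21.

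**Figure D2:**
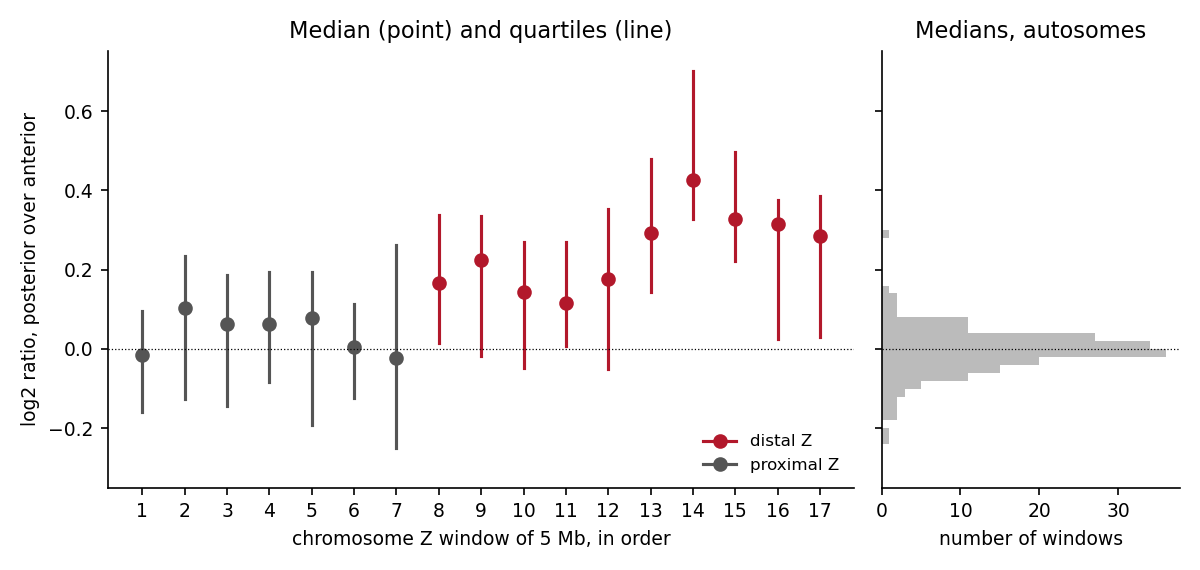
Left, median (point) and quartiles (line) of the log2 ratio of posterior over anterior FPKM (y axis) in each 5 Mb window of chromosome Z, in order (x axis), with distal and proximal windows in different colours, and, right, number of autosomal windows (x axis) at each median. The 14th window of Z has the highest median, 0.43, above the highest autosomal window at 0.29.

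Neighbouring members were only weakly alike, and about as much so as neighbours on chromosome Z before 35 Mb. Over 231 pairs of adjacent members with different loci, the log2 ratios differed by a median of 0.27, against 0.28 for adjacent pairs on chromosome Z before 35 Mb and 0.24 for adjacent autosomal pairs. Pearson's r between neighbours was 0.14 and Spearman's rho 0.19 (each gene stands in up to 2 pairs), on chromosome Z before 35 Mb the values were 0.14 and 0.18 over 244 pairs, and on autosomes they were 0.10 and 0.11 over 9028 pairs.

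**Figure D3:**
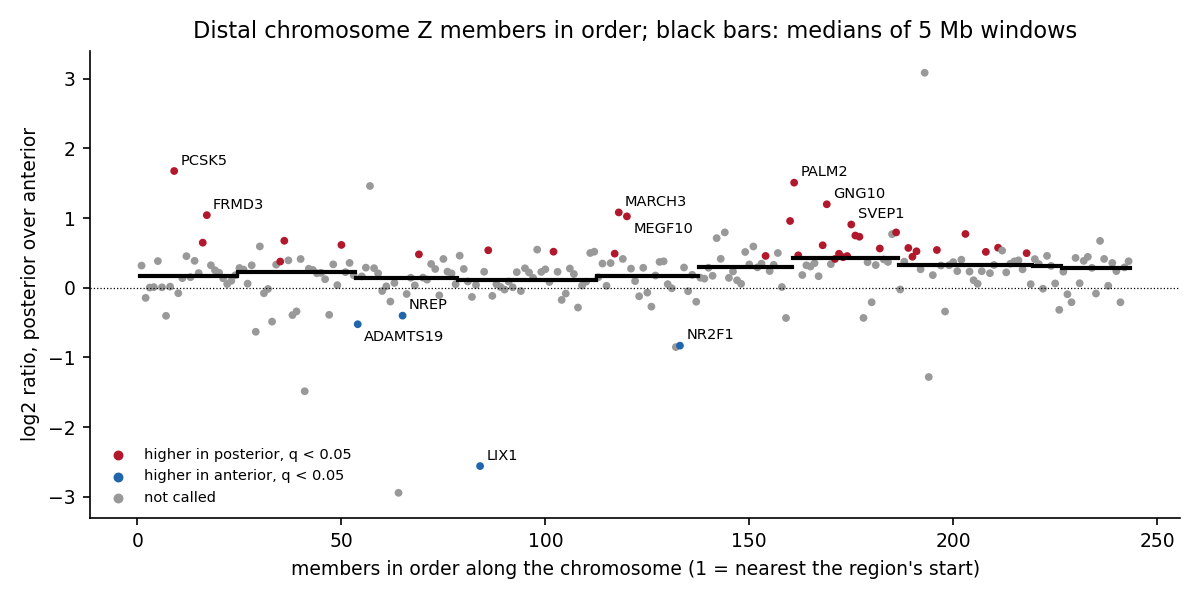
Log2 ratio of posterior over anterior FPKM (y axis) of the 243 members in their order along the chromosome (x axis); colours give the authors' call at q under 0.05 and black bars are medians of 5 Mb windows. Among anterior calls, LIX1 lies lowest at -2.56; the highest and lowest grey points, gga-mir-1583 and SNORA13, are small RNA rows that share the locus of another gene.

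Runs of at least 3 neighbouring members called in the same direction stood in 3 places. Shorter groups of called neighbours, such as TLE1 with FRMD3 and UGCG with GNG10, are not counted here. A run of 7 neighbouring members, KIAA0368, SMC2, PTGR1, TXN, SVEP1, MUSK and LPAR1, from 66228620 to 66700595 bp, was called higher in posterior without a break in the authors' deposited table. Their log2 ratios ranged from 0.41 to 0.91. The longest run of one direction on the autosomes held 5 rows, among 9 autosomal runs of at least 3. Among tested autosomal rows at 1 FPKM or more, 3.34% were called higher in posterior and 3.61% higher in anterior. Of tested members 14.9% were called higher in posterior, and from 65 to 70 Mb 50% were. Denser calls make longer runs likelier, so nothing is read from the difference in length. Another run on distal Z joined the row ENSGALG00000015542 with PALM2 and AKAP2, and the other one APTX, DNAJA1 and SMU1 (70409004 to 70441699 bp). PALM2 and AKAP2 may be parts of a single gene, so their run may hold fewer genes than rows. From PALM2 to LPAR1, a stretch of 1.46 Mb, all 17 members had the higher value in posterior, and 11 of them were called in the authors' deposited table. The posterior value was higher in 81.1% of all members and in 92.3% of those from 65 to 70 Mb. Over all tested rows, 3.57% were called higher in posterior. Both ends of the stretch are called members, so its counts follow in part from how it was drawn.

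Genes of this stretch have little known function in common. PALM2, which encodes a paralemmin of the cell membrane, was at 2.82 FPKM in posterior and 0.991 FPKM in anterior (log2 ratio 1.51, q = 0.0129 in the authors' deposited table). The adjacent row AKAP2, an anchor of protein kinase A, was at 8.45 FPKM in posterior and 6.12 FPKM in anterior (q = 0.0473 in the authors' deposited table). The joined symbol PALM2-AKAP2 is also in use, so PALM2 and AKAP2 may be parts of a single gene. They were counted separately here. GNG10, a G protein gamma subunit, was at 75.2 FPKM in posterior and 32.8 FPKM in anterior (log2 ratio 1.20, q = 0.00139 in the authors' deposited table). Its ratio was larger than that of its neighbour UGCG, which makes glucosylceramide and was at 22.1 FPKM in posterior and 14.5 FPKM in anterior (1.53-fold, q = 0.00261 in the authors' deposited table). Of the 17 members of the stretch, PALM2 and GNG10 were the ones past 2-fold. The anterior value of PALM2 was under the 1 FPKM minimum, so it is a member only through its posterior value. SMC2, a condensin subunit that compacts chromosomes, was at 162 FPKM in posterior and 116 FPKM in anterior (q = 0.00261 in the authors' deposited table). TXN, which encodes thioredoxin, was among the most abundant members, at 693 FPKM in posterior and 506 FPKM in anterior (1.37-fold, q = 0.0153 in the authors' deposited table). The reductase gene PTGR1 was at 68.3 FPKM in posterior and 50.4 FPKM in anterior (1.36-fold, q = 0.0251 in the authors' deposited table). UGCG, SMC2, TXN and PTGR1 thus lay within 1.36-fold to 1.53-fold. SVEP1, which encodes a large secreted matrix protein, had a larger ratio, at 4.28 FPKM in posterior and 2.28 FPKM in anterior (1.88-fold, q = 0.00139 in the authors' deposited table). MUSK, the receptor kinase that organises neuromuscular junctions, was at 5.63 FPKM in posterior and 3.35 FPKM in anterior (1.68-fold, q = 0.0169 in the authors' deposited table). LPAR1, a receptor for lysophosphatidic acid, was at 153 FPKM in posterior and 92.4 FPKM in anterior (1.66-fold, q = 0.00139 in the authors' deposited table). These 3 adjacent genes at the far end of the run had larger ratios than the 4 before them. KIAA0368, a proteasome scaffold gene, was at 20.5 FPKM in posterior and 15.4 FPKM in anterior (q = 0.0358 in the authors' deposited table). PALM2, KIAA0368 and the uncalled PTBP3 share their locus with another row, so their reads may have been divided.

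**Figure D4:**
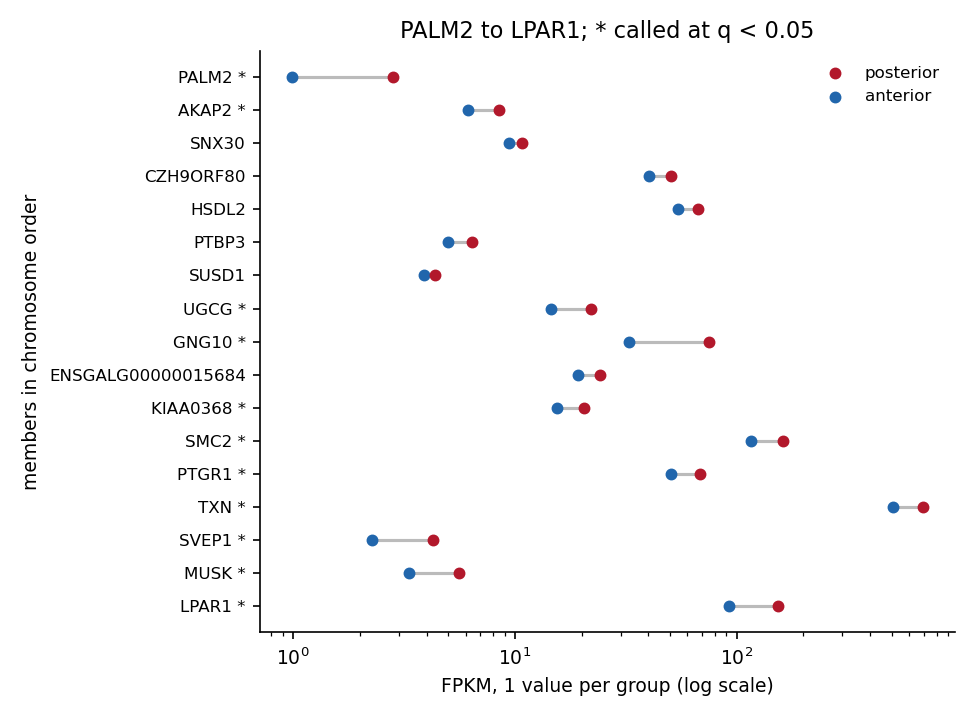
FPKM in posterior and anterior half-sclerotomes (x axis, log scale, 1 value per group) of the 17 members from PALM2 to LPAR1 in chromosome order (y axis); asterisks mark calls at q under 0.05. The posterior point lies right of the anterior point in all 17, and 11 are marked.

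By function, 144 members fell in 1 of 8 lists. The lists for the cell cycle and DNA repair, metabolism, and membrane traffic and protein turnover had median log2 ratios between 0.26 and 0.35. So did the lists for RNA and translation, receptors and signalling, and the cytoskeleton. The median was 0.24 over all 243 members, 0.225 over the 99 members in no list and 0.005 over all tested rows of the table. With log2 of FPKM + 1 the cytoskeleton median was 0.20 in place of 0.31. Secreted and matrix genes were more spread out, with a median of 0.16 and quartiles at -0.12 and 0.76. Transcription and chromatin genes had the lowest median, 0.10. These medians describe the lists and were not tested against each other. The lists also differ in where along the region their members lie, and position was not taken into account. The calls by list given below stand beside 14.9% of all tested members called higher in posterior and 1.7% higher in anterior. Over all tested rows of the authors' deposited table, the shares were 3.57% and 3.50%. Nothing is read from these differences, because the ratios chose the region.

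**Figure D5:**
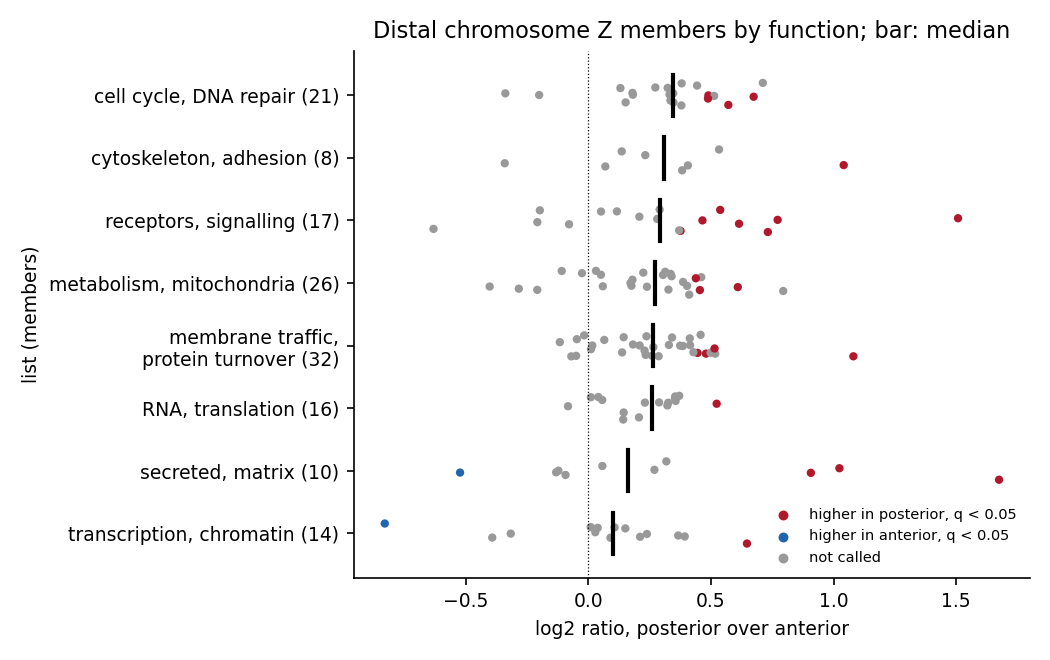
Log2 ratio of posterior over anterior FPKM (x axis) of each listed member, by list (y axis, with the number of members); black bars are medians and colours give the authors' call at q under 0.05. The cell cycle list has the highest median at 0.35, and the outermost points are PCSK5 on the posterior side and NR2F1 on the anterior side.

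Among 10 secreted and matrix members, 3 were called higher in posterior and 1 in anterior, going by the authors' deposited table. PCSK5, a convertase that cuts secreted precursor proteins, had the largest ratio of all called members, at 53.5 FPKM in posterior and 16.8 FPKM in anterior (3.19-fold, q = 0.00139 in the authors' deposited table). It lies from 36922222 to 37183206 bp of chromosome Z on galGal4. MEGF10, which encodes a membrane receptor for engulfment and not a matrix protein, was at 7.11 FPKM in posterior and 3.49 FPKM in anterior (q = 0.00139 in the authors' deposited table). SVEP1 was the other call. ADAMTS19, a secreted metalloprotease gene, was the anterior one, at 5.43 FPKM in posterior and 7.80 FPKM in anterior (q = 0.0244 in the authors' deposited table). The membrane-bound guidance ligands of this list were not called. SEMA6A was at 38.6 FPKM in posterior and 37.1 FPKM in anterior (q = 0.924 in the authors' deposited table), and EFNA5 was at 22.1 FPKM in posterior and 18.3 FPKM in anterior (q = 0.636 in the authors' deposited table).

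Of 16 tested members for receptors and signalling, 7 were called higher in posterior and 0 in anterior, going by the authors' deposited table. PTCH1, the receptor that binds Sonic hedgehog and is itself induced by it, was at 40.002 FPKM in posterior and 30.8 FPKM in anterior (1.30-fold, q = 0.0490 in the authors' deposited table). That is the smallest ratio among called posterior members and lies close to the threshold. PTCH1 lies from 41628098 to 41693685 bp. ROR2, a Wnt receptor of the tyrosine kinase type, was at 6.004 FPKM in posterior and 3.92 FPKM in anterior (1.53-fold, q = 0.0103 in the authors' deposited table). TNFAIP8, an intracellular regulator of cell survival, was at 8.66 FPKM in posterior and 5.07 FPKM in anterior (1.71-fold, q = 0.00261 in the authors' deposited table). SHB, an adaptor below receptor kinases, was at 8.83 FPKM in posterior and 6.08 FPKM in anterior (q = 0.0257 in the authors' deposited table). LPAR1, PALM2 and AKAP2 complete the 7, though PALM2 and AKAP2 may be parts of a single gene. GAS1, a Hedgehog co-receptor gene, was at 5.73 FPKM in posterior and 8.87 FPKM in anterior (q = 0.745 in the authors' deposited table). A row without a symbol at the same locus went the other way, at 7.78 FPKM in posterior and 5.16 FPKM in anterior. Reads of this locus may have been divided, so no direction is read for GAS1. TEK, the angiopoietin receptor of endothelium and 1 of the 5 endothelial markers above, was at 3.16 FPKM in posterior and 2.45 FPKM in anterior (q = 0.308 in the authors' deposited table).

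Transcription and chromatin members gave 1 call in each direction among 13 tested in the authors' deposited table. NR2F1, a COUP orphan nuclear receptor, was at 53.0 FPKM in posterior and 94.2 FPKM in anterior (log2 ratio -0.83, q = 0.00139 in the authors' deposited table). A row without a symbol at the same locus was at 9.94 FPKM in posterior and 17.9 FPKM in anterior (q = 0.338 in the authors' deposited table), so reads of this locus may have been divided. NR2F1 lies from 58199293 to 58208604 bp. TLE1, a Groucho co-repressor, was at 17.4 FPKM in posterior and 11.1 FPKM in anterior (1.57-fold, q = 0.00139 in the authors' deposited table). ZFAND5, the next most abundant of this list, was at 27.4 FPKM in posterior and 27.2 FPKM in anterior.

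Among cell cycle and DNA repair genes, the posterior value was higher in 19 of 21 members, beside 81.1% of all members. This list gave 4 calls among 21 tested members, all higher in posterior in the authors' deposited table. Besides SMC2, these were LMNB1, which encodes the nuclear envelope protein lamin B1, at 99.1 FPKM in posterior and 70.6 FPKM in anterior (1.40-fold, q = 0.00261 in the authors' deposited table). The repair helicase-like gene ERCC6L2 was at 13.0 FPKM in posterior and 8.17 FPKM in anterior (1.60-fold, q = 0.00139 in the authors' deposited table). APTX, an enzyme gene of DNA strand break repair, was at 22.1 FPKM in posterior and 14.9 FPKM in anterior (1.49-fold, q = 0.0462 in the authors' deposited table). All 4 calls of this list were under 2-fold. XRCC4, of DNA end joining, had the largest ratio of the list but was not called, at 13.6 FPKM in posterior and 8.32 FPKM in anterior (q = 0.0520 in the authors' deposited table), and it shares its locus.

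In the RNA and translation list, the posterior value was higher in 15 of 16 members, beside 81.1% of all members. Of the 16, 1 was called in the authors' deposited table. That was SMU1, a splicing factor gene, at 83.3 FPKM in posterior and 58.0 FPKM in anterior (1.44-fold, q = 0.00139 in the authors' deposited table). RPS23, a ribosomal protein gene and the most abundant member of the region, was at 1945 FPKM in posterior and 1762 FPKM in anterior (1.10-fold, q = 0.687 in the authors' deposited table). TTC37, a part of the complex that feeds RNA to the exosome, was at 17.0 FPKM in posterior and 13.1 FPKM in anterior (q = 0.0836 in the authors' deposited table).

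Metabolic and mitochondrial genes gave 3 calls among 25 tested members, which were UGCG, PTGR1 and TXN, with no call toward anterior in the authors' deposited table. ATP6AP1L had the largest ratio of that list, at 5.43 FPKM in posterior and 3.13 FPKM in anterior, and was not called (q = 0.0879 in the authors' deposited table). Membrane traffic and protein turnover gave 4 calls among 32 tested members, all in posterior, in the authors' deposited table. MARCH3, a membrane-bound ubiquitin ligase gene, was at 2.39 FPKM in posterior and 1.13 FPKM in anterior (2.12-fold, q = 0.0112 in the authors' deposited table). MAN2A1, a Golgi mannosidase gene, was at 26.9 FPKM in posterior and 19.3 FPKM in anterior (q = 0.00577 in the authors' deposited table). AP3S1, a subunit of a vesicle coat adaptor, was at 70.8 FPKM in posterior and 49.5 FPKM in anterior (q = 0.00955 in the authors' deposited table). MARCH3 was thus the one call of this list past 2-fold. DNAJA1, a co-chaperone gene that shares its locus, was at 85.1 FPKM in posterior and 62.5 FPKM in anterior (q = 0.0290 in the authors' deposited table). TMEM38B, an intracellular cation channel gene, was at 4.31 FPKM in posterior and 3.01 FPKM in anterior (q = 0.121 in the authors' deposited table). The 2 most abundant members of this list had nearly equal levels, whereas DNAJA1 and AP3S1, next in level, were called higher in posterior. CLTA, the clathrin light chain, was at 118 FPKM in posterior and 117 FPKM in anterior, and the row CTSL2, a cathepsin, at 86.0 FPKM in posterior and 87.0 FPKM in anterior.

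The cytoskeleton and adhesion list gave 1 call among 7 tested members in the authors' deposited table, FRMD3, a FERM domain gene, at 9.69 FPKM in posterior and 4.71 FPKM in anterior (2.06-fold, q = 0.00139 in the authors' deposited table). TMOD1, which caps actin filaments, was at 17.2 FPKM in posterior and 21.7 FPKM in anterior (q = 0.370 in the authors' deposited table). IFT74, a ciliary transport gene that shares its locus, was at 9.83 FPKM in posterior and 7.42 FPKM in anterior (q = 0.456 in the authors' deposited table). MARVELD2, a tight junction gene, was at 2.68 FPKM in posterior and 1.86 FPKM in anterior (q = 0.169 in the authors' deposited table).

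The other 99 members were in no list, and 11 of them were called higher in posterior and 2 in anterior, going by the authors' deposited table. Besides GNG10, MUSK, KIAA0368 and the row ENSGALG00000015542 (7.35 FPKM in posterior and 3.79 FPKM in anterior), the posterior calls included C9orf72, the gene whose repeat expansion causes motor neuron disease in humans, at 4.09 FPKM in posterior and 2.36 FPKM in anterior (1.73-fold, q = 0.0290 in the authors' deposited table). NCBP1, a subunit of the nuclear cap-binding complex, was at 69.4 FPKM in posterior and 47.7 FPKM in anterior (q = 0.00139 in the authors' deposited table). MCCC2, of leucine breakdown, was at 27.9 FPKM in posterior and 19.8 FPKM in anterior. FNTA, a subunit of protein prenyltransferases, was at 14.6 FPKM in posterior and 10.2 FPKM in anterior. Both ratios lay near the median of the called posterior members. PLAA, a ubiquitin-binding protein gene, was at 33.3 FPKM in posterior and 22.5 FPKM in anterior. AK6, an adenylate kinase gene, was at 60.8 FPKM in posterior and 44.3 FPKM in anterior, and the row ENSGALG00000028484 at 72.0 FPKM in posterior and 48.3 FPKM in anterior. NCBP1, PLAA and AK6 share a locus with another row. By function several of these, such as NCBP1, MCCC2, MUSK, GNG10, KIAA0368 and PLAA, would match a list. The calls per list therefore depend on how the lists were written.

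The 4 members called higher in anterior in the authors' deposited table all lay in the windows from 45 to 60 Mb, and 0 were next to each other. LIX1, which was first described in the chick limb, had the lowest ratio of any member with a locus of its own, at 0.366 FPKM in posterior and 2.16 FPKM in anterior (log2 ratio -2.56, q = 0.00679 in the authors' deposited table). Its posterior value was under the 1 FPKM minimum, so it is a member only through its anterior value. LIX1 lies from 51375633 to 51406317 bp. NREP, linked to neuronal regeneration, was abundant in both groups, at 119 FPKM in posterior and 158 FPKM in anterior (log2 ratio -0.40, q = 0.0326 in the authors' deposited table). ADAMTS19 and NR2F1, given above, are the others. Neural crest and myotome markers also lay toward anterior, at summed levels of 6.13 and 27.5 FPKM in posterior and 144 and 60.5 FPKM in anterior, and their part in these 4 ratios was not tested.

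The ratio varied with level. Between 1 and 5 FPKM, the posterior value was higher in 68% of 50 members, with a median log2 ratio of 0.15. It was higher in 82.5% of 114 members from 5 to 20 FPKM, in 86.4% of 44 members from 20 to 50 FPKM and in 88.6% of 35 members at 50 FPKM or more, where the median was 0.31. Autosomal rows in the same bands had medians of -0.04, 0.02, 0.004 and -0.01. Of the 35 most abundant members, 12 were called higher in posterior and 2 in anterior, going by the authors' deposited table. In the same band, 2.57% of 1945 tested autosomal rows were called higher in posterior and 2.16% higher in anterior in the authors' deposited table, and nothing is read from the difference.

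Rows on either side of the rule's limits had ratios in both directions. Just inside the start, TMEM2 was at 12.0 FPKM in posterior and 9.60 FPKM in anterior, and ABHD17B at 17.9 FPKM in posterior and 19.8 FPKM in anterior. Just before it, SMC5 was at 26.0 FPKM in posterior and 22.6 FPKM in anterior, and MAMDC2 at 4.09 FPKM in posterior and 5.56 FPKM in anterior. At the level of 1 FPKM the last members and the first rows left out had these values. TMC1 was at 1.15 FPKM in posterior and 0.885 FPKM in anterior, and SK2 at 1.07 FPKM in posterior and 1.03 FPKM in anterior. Just under the level, SLC27A6 was at 1.13 FPKM in posterior and 0.792 FPKM in anterior, and POLR3G at 0.684 FPKM in posterior and 1.22 FPKM in anterior. Of the 3 genes left out by name, MEF2C was at 3.64 FPKM in posterior and 13.9 FPKM in anterior, HAPLN1 at 21.1 FPKM in posterior and 14.2 FPKM in anterior, and VCAN at 42.6 FPKM in posterior and 33.3 FPKM in anterior. With them, 36 genes were called higher in posterior and 5 in anterior, going by the authors' deposited table.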

How the data were processed

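Per the labels' protocols, stranded poly(A) libraries were made from about 200 ng of RNA each and read on one end for 50 nt. Tools named by the submitters' processing notes, with no roles, are Cufflinks 2.2.1, Cuffdiff, TopHat2 2.1.0 and FastQC, with galGal4 as the build. The authors deposited 1 table of 17108 rows with 1 FPKM value per group. Per the file headers it also gives p-values and q-values for posterior against anterior, a test statistic, which is a score and was not used, and a log2 ratio. That log2 column holds 610 spreadsheet errors, so the deposited FPKM values were divided here (no pseudocount) and the deposited ratio column was not used. Sources used here do not name the annotation, the counting options or how libraries entered the q-values. The authors' q-values match Benjamini-Hochberg adjustment over the 10529 tested rows to within 5.27e-07; the lowest p is 5e-05 (q = 0.00139) and cannot be ranked further.

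Starts are the table's plus 1, because its lowest start is 0. Of the members, 22 have no symbol, 8 were not tested and 36 share their locus with another row. The region, lists and tests were chosen with earlier results of these data known. The 8 lists hold 504 symbols; 5 members were matched by a synonym in RefSeq gene names of assembly GRCg7b. Named were all anterior calls, the 15 posterior calls of highest ratio, per list the 2 most abundant members and the 2 of largest ratio, members of runs of at least 3 calls, rows at the edges of the rule, tested W rows as a group and 5 genes fixed by name (of which TGFBR1 was not a member). A few others were chosen after their values were seen. These were the remaining called members, GAS1, TEK, the Z copies of W genes, gga-mir-1583, gga-mir-2954, SNORA13 and other rows named for sharing a locus. Summaries were made with Python 3.11.15, pandas 2.3.3, numpy 2.4.6 and scipy 1.17.1, and checked on a simulated table. Of the neural crest marker list, 1 gene is not reported here and was left out of its count and sums.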

Additional observations from a re-analysis of the deposited data

How the results depend on the processing

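Alternative settings mostly reused the same rows of a region chosen with the ratios known. The sign of the median was thus nearly fixed beforehand, and only its size is described. The median log2 ratio of the members stayed positive in all 13 alternatives, from 0.207 to 0.265. It was 0.229 with no FPKM minimum, 0.265 at 5 FPKM or more, 0.23 from 30 Mb on, 0.26 from 40 Mb on, 0.215 for log2 of FPKM + 1 and 0.252 over rows the authors tested. In alternatives chosen after seeing the data it was 0.207 without the windows from 65 to 75 Mb and 0.213 without called members. At a q threshold of 0.01 in the authors' deposited table, 18 members were higher in posterior and 2 in anterior. At a threshold of 0.1 the counts were 46 and 4. Shares over all tested rows were not computed at these thresholds, so nothing is read from these counts. Without the windows from 65 to 75 Mb, 14 were higher in posterior, because most of the calls lie there. The 16 recomputed list medians moved by up to 0.11, and none changed sign. Adding 1 FPKM cannot turn the direction of any gene's ratio, and the other setting only dropped members under 5 FPKM. Nothing is therefore read from the unchanged signs. With log2 of FPKM + 1 the median was 0.198 for the cytoskeleton list, 0.236 for RNA and translation, 0.237 for membrane traffic and 0.252 for metabolism. At 5 FPKM or more it was 0.231 for RNA and translation and 0.237 for membrane traffic. No paired analysis was possible because the table holds 1 value per group and none per library. For the same reason no replicate could be left out, and the spread between libraries and the depth behind each FPKM value limit every statement on a single gene.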

Other observations

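The widest stretch of the region without a member ran for 5.32 Mb from SK2 to MTAP. It held 26 rows, of which 24 were at 0 FPKM in both groups and 25 had no symbol, and the highest mean was 0.0226 FPKM. The distal end of chicken chromosome Z is known for a tandem array of genes expressed in testis.

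The highest and the lowest ratio of the region belonged to small RNA rows that share the locus of another gene, gga-mir-1583 and SNORA13, and neither was called in the authors' deposited table. The row gga-mir-1583 was at 163 FPKM in posterior and 19.2 FPKM in anterior (q = 0.828), and gga-mir-2954, a miRNA known to be enriched in male birds, was at 139 FPKM in posterior and 337 FPKM in anterior (q = 0.899), in the authors' deposited table. Both are listed at the locus of XPA. SNORA13 was at 4.46 FPKM in posterior and 34.2 FPKM in anterior (q = 0.846 in the authors' deposited table). Poly(A) libraries do not measure mature small RNAs, and FPKM of very short RNAs is imprecise. Without the 36 members that share a locus, the log2 ratios ranged from -2.56 to 1.68.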
